A study of Mus musculus with 6 samples.

Results

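The Eμ-Myc mouse carries Myc under the control of the immunoglobulin heavy-chain enhancer, so that the transgene is active in B-lineage cells, and the mice stay free of overt lymphoma for some weeks before B-cell lymphoma appears. Compared here were bone marrow pre-B cells of premalignant animals (genotype E{mu}Myc/+, heterozygous on C57BL/6) and of wild-type C57BL/6 littermates. All mice of these groups were 4 to 6 weeks old. Both groups were sorted by the same gate, B220high IgMlow IgDlow. The paper describes its cells as progenitor (pro-B) and precursor (pre-B) B cells, here called pre-B cells. Individual animals were the replicates, and polyadenylated RNA of 2 animals a group was sequenced. These 4 libraries were all those labelled wild type or premalignant among the 6 of the series. The other 2 came from malignant Eμ-Myc mice, which were older. Each count table held 37991 gene identifiers, of which 16683 passed the filter on low counts and were tested. Reads counted on genes came to 51065861 and 31283803 in wild type 1 and 2 and to 53453055 and 34543633 in premalignant 1 and 2, where 1 and 2 are the replicate numbers of the labels. Levels are given as CPM, read counts scaled to the TMM-normalised library size, in the order replicate 1 and replicate 2. The lowest level read as detected, 3 counts in a library, was between 0.0526 and 0.0903 CPM in these 4 libraries.

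MYC is a transcription factor that binds the E box CACGTG together with MAX, and it is known for raising the expression of genes for ribosome assembly, translation, nucleotide and polyamine synthesis and cell cycle entry. Pre-B cells are bone marrow precursors that have rearranged the heavy chain, test it in the pre-B cell receptor with the surrogate light chains, divide under interleukin 7 and then leave the cycle to rearrange a light chain. The comparison asks which of these programmes differ in pre-B cells that carry the transgene before lymphoma is present.

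The targeted gene came first. Myc (ENSMUSG00000022346, chr15:61816946-61821929 in NCBIM37) was at 33.7 and 41.4 CPM in wild type and at 1164 and 1155 CPM in the premalignant libraries, a log2 fold change of 4.95 ± 0.19 (SE, n = 2 animals a group, adjusted p = 0.00104 by edgeR's quasi-likelihood test). Reads of the transgene and of the endogenous gene are counted together. Defining markers of pre-B cells were present in all 4 libraries. Cd79a, the Igα chain of the receptor, was at 1103 and 1479 CPM in wild-type and 801 and 866 CPM in premalignant cells. Of the 10 defining markers, 9 were called lower and none higher (median log2 fold change -1.20), and their summed level was 7192 and 7999 CPM in wild-type and 3443 and 3408 CPM in premalignant cells. With single libraries left out in turn, 7, 4, 3 and 3 of them were called lower.

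A gene was called when its FDR was 0.1 or less and its log2 fold change was 0.5 or more in size. By this rule 3169 genes were higher in premalignant cells (19% of the genes tested) and 3394 were lower (20.3%), so that 39.3% of all tested genes were called in one direction or the other. The counts in the lists described in the following text are read against these shares. The median log2 fold change was 1.08 among the genes called higher and -1.67 among those called lower, against -0.08 over all genes tested, so that the falls were larger than the rises. Changes of at least 2 on the log2 scale made up 365 of the rises and 1367 of the falls. Genes called higher had a median level of 25.7 CPM in wild-type cells and 52.8 CPM in premalignant cells, whereas genes called lower fell from a median of 13.5 to 3.36 CPM. All 3169 higher genes and 3393 of the 3394 lower genes had both libraries of one group above both of the other, which also held for 77.4% of all genes tested.

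The split between rises and falls depended on the scaling. With the total counts as library sizes, in place of TMM, the median over all genes moved by -0.21 and 2250 genes were called higher and 4434 lower, so that rises made up 33.7% of the calls in place of 48.3%. Fewer genes passed with 1 library left out. There were 2513 higher and 2237 lower genes without wild type 1, and 1740 and 1545 without wild type 2. Without premalignant 1 there were 1510 and 993, and without premalignant 2 there were 1231 and 863. With only 2 animals a group, the exact permutation test of a single value cannot go below p = 0.333, so the adjusted p-values rest on the spread that edgeR shares among genes and libraries.

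**Figure D1:**
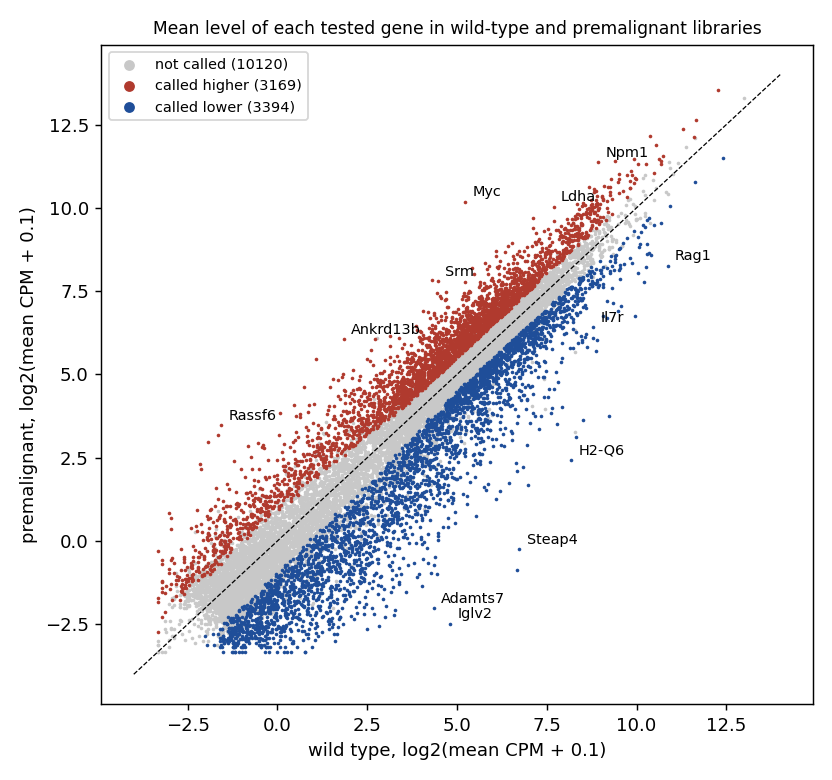
Mean level of each of the 16683 tested genes, as log2 of the mean CPM plus 0.1, in the wild-type (horizontal) and premalignant (vertical) libraries, with genes called higher in red, called lower in blue and others in grey. Myc lies far above the dashed line of equal levels, at 33.7 and 41.4 CPM against 1164 and 1155 CPM, and Iglv2, Adamts7 and Steap4 lie farthest below it among the labelled genes.

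The genes with the largest rises, at 10 CPM or more in the higher group, were mostly low in wild-type cells. Rassf6 (ENSMUSG00000029370, chr5:91032102-91069513), a Ras-association domain protein, went from 0.28 and 0.198 CPM to 10.6 and 11.5 CPM (log2 fold change 5.47 ± 0.38, adjusted p = 0.00147). Myc was next, followed by Stac2 (1.84 and 2.18 against 32 and 55.5 CPM; log2 fold change 4.45 ± 0.34, adjusted p = 0.00173). Ankrd13b, an ankyrin-repeat protein, rose from 2.84 and 4.13 to 62.5 and 70.6 CPM (log2 fold change 4.26 ± 0.29, adjusted p = 0.00147). Car12, a membrane carbonic anhydrase, was at 1.26 and 1.87 CPM in wild-type and 23 and 26.2 CPM in premalignant libraries. Enzymes of amino acid and polyamine synthesis made up 3 of these 12 genes. Ass1, the argininosuccinate synthase of arginine synthesis, rose from 19.9 and 19.2 to 216 and 237 CPM (log2 fold change 3.54 ± 0.14, adjusted p = 0.00104). Srm, the spermidine synthase, rose from 19.3 and 24.7 to 228 and 217 CPM (log2 fold change 3.34 ± 0.18, adjusted p = 0.00141). Pycr1, the last enzyme of proline synthesis, rose from 1.4 and 1.25 to 12.5 and 14 CPM (log2 fold change 3.32 ± 0.32, adjusted p = 0.00221). The others were Fabp5, a fatty acid binding protein (6.45 and 6.54 against 69.6 and 63.6 CPM), Ptk2, the focal adhesion kinase (2.77 and 2.83 against 20.9 and 36.7 CPM), and Pcsk4, a proprotein convertase (0.893 and 1.67 against 17.7 and 15.8 CPM). The pseudogene Gm5424 was also among them (0.806 and 1.1 against 11.4 and 17.1 CPM), and its reads may be shared with a parent gene. Groups that do not overlap were a condition for picking these 12 genes, and this also held for 77.4% of all genes tested.

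Among the largest falls, 4 of 12 were immunoglobulin genes. Iglv2, a lambda light-chain V gene, fell from 25.7 and 30.4 CPM to 0.0381 and 0.12 CPM. These levels were 1469 and 1074 counts against 2 and 4 counts, and the ratio of the pooled levels was 393 with a 95% counting interval from 180.3 to 1072. Iglc2 and Iglv1, also of the lambda locus, were at 78.5 and 127 CPM and 111 and 139 CPM in wild-type libraries and at 0.133 and 0.753 CPM and 1.87 and 4.34 CPM in premalignant libraries. Ighg, a heavy-chain constant gene, fell from 22.5 and 21.1 to 0.21 and 0.602 CPM. Reads of such close copies can be split between genes or left out by the counting, and their levels are uncertain. Markers of other cell types, plasma cells included, were also lower, as described in the following text, and their part in these falls was not tested. Steap4 (ENSMUSG00000012428, chr5:7960472-7982213), a metalloreductase, fell from 99.5 and 114 CPM to 0.876 and 0.602 CPM (log2 fold change -7.14 ± 0.26, adjusted p = 0.00104). Adamts7, a secreted metalloprotease, fell from 17.9 and 22.9 to 0.171 and 0.12 CPM (log2 fold change -7.07 ± 0.56, adjusted p = 0.00179). H2-Q6, a class Ib histocompatibility gene with close copies, fell from 253 and 324 to 5.33 and 5.21 CPM. Camk1g, a calmodulin-dependent kinase, Mmrn1, the multimerin, Scn4b, a sodium channel β subunit, and the long noncoding RNA 2610307P16Rik were between 11.6 and 22.8 CPM in wild-type libraries and at 0.762 CPM or less in premalignant libraries. Jun was the remaining member of the 12, at 27.3 and 1178 CPM in wild type and 3.14 and 23.8 CPM in premalignant libraries. Its wild-type libraries were 5.43 apart on the log2 scale, against a log2 fold change of -5.50 between the groups. Jun was no longer called without wild type 2, premalignant 1 or premalignant 2 (adjusted p from 0.139 to 0.578).

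**Figure D2:**
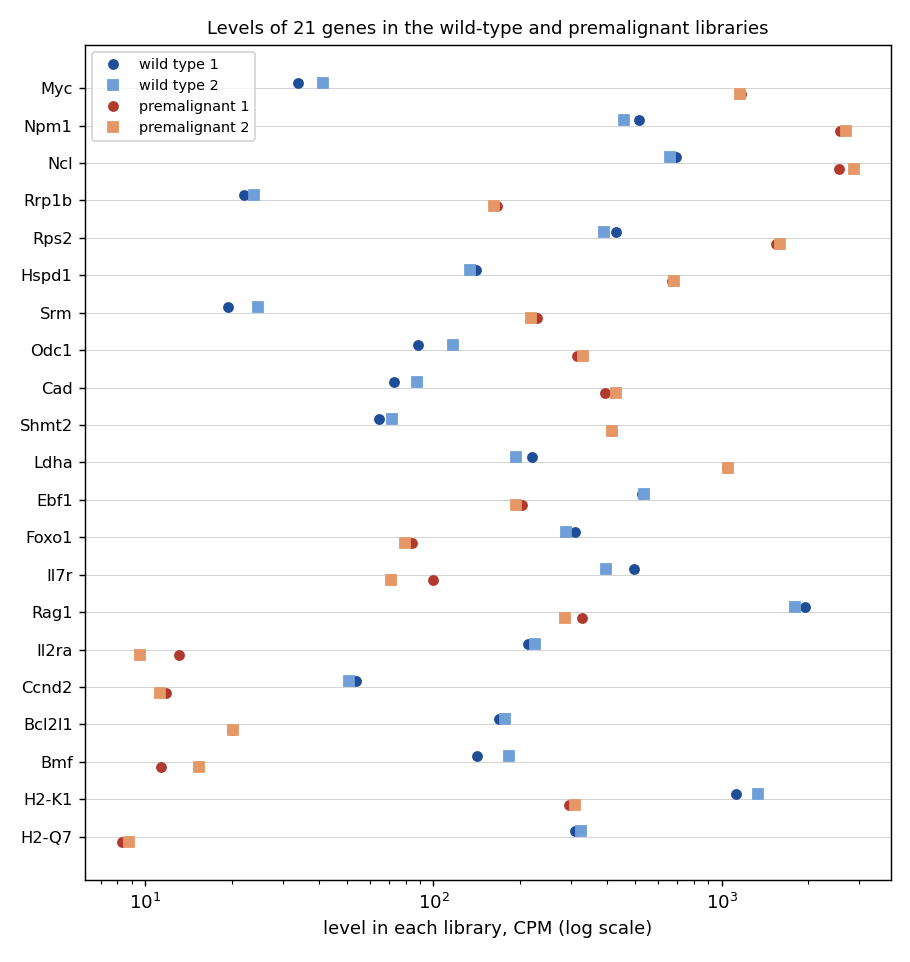
Levels of 21 genes in CPM on a log scale, with wild type 1 and 2 in blue and premalignant 1 and 2 in red and orange. For Myc and the 10 genes below it the premalignant libraries lie to the right of the wild-type libraries, and for the 10 genes from Ebf1 down they lie to the left, with no overlap between the groups. The genes were chosen as examples, and groups do not overlap in 77.4% of all genes tested.

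Genes for building ribosomes rose nearly as a whole. Of 92 nucleolar and ribosome biogenesis factors tested, 89 were called higher and 0 lower, with a median log2 fold change of 1.49. Without wild type 1, wild type 2, premalignant 1 and premalignant 2 in turn, 88, 84, 83 and 79 were higher. Npm1, the nucleophosmin of the granular nucleolus, was at 517 and 457 CPM in wild-type and 2571 and 2699 CPM in premalignant libraries (log2 fold change 2.44 ± 0.17, adjusted p = 0.00147). Ncl, nucleolin, was at 695 and 664 and 2565 and 2880.0 CPM (log2 fold change 2.00 ± 0.23, adjusted p = 0.00331). Rrp1b, a large-subunit processing factor, rose most, from 21.9 and 23.9 to 166 and 163 CPM (log2 fold change 2.84 ± 0.14, adjusted p = 0.00132). Gnl3, nucleostemin, rose from 42.9 and 42.4 to 293 and 288 CPM. Rcl1, which acts in 18S rRNA maturation, rose from 17.4 and 18.7 to 112 and 120.3 CPM, and Mybbp1a from 131 and 147 to 799 and 857 CPM. In none of the 92 factors did the wild-type libraries differ by 1 or more on the log2 scale.

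The polymerase that transcribes ribosomal DNA followed the same direction. Of 19 RNA polymerase I subunits and factors, 15 were higher and 0 lower, with a median of 0.97 (14, 11, 10 and 8 higher with the libraries left out in the same order). The catalytic subunits Polr1a and Polr1b rose from 49.2 and 59.3 to 185 and 206 CPM and from 23.4 and 23.8 to 161 and 154 CPM (log2 fold change 2.74 ± 0.13, adjusted p = 0.0013). Cd3eap, another subunit, rose from 5.13 and 4.3 to 24 and 23.6 CPM. Ubtf, the architectural factor that marks active ribosomal DNA repeats, rose from 254 and 250.4 to 390.1 and 420.3 CPM (log2 fold change 0.68 ± 0.13, adjusted p = 0.0134). With total counts as library sizes it was below the fold threshold (log2 fold change 0.47). RNA polymerase III, which makes 5S rRNA and tRNA, had 9 of 27 members higher and 1 lower and a median of 0.43. Polr3g, a subunit with an alternative paralogue, rose from 7.27 and 6.31 to 24.9 and 31.7 CPM and Polr3e from 28.8 and 28.6 to 100.5 and 92.3 CPM. Snapc3, of the snRNA-activating complex, fell from 65.2 and 69.8 to 39 and 32.7 CPM. Maf1, the repressor of polymerase III, was at 142 and 152 CPM and 108 and 109 CPM and was not called (log2 fold change -0.44 ± 0.14, adjusted p = 0.0565), but it was called lower with upper-quartile scaling, total counts as library sizes or at least 10 counts in every library. Snapc3 was no longer called without premalignant 2 (adjusted p = 0.139). Ubtf was no longer called without premalignant 1 or premalignant 2 (adjusted p from 0.102 to 0.147).

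Ribosomal proteins rose with the assembly factors. Of 78 cytosolic ribosomal proteins, 77 were higher and 0 lower, with log2 fold changes from 0.37 to 1.93 and a median of 1.19 (71, 67, 62 and 64 higher with single libraries left out). Summed over the list, their transcripts made up 36465 and 33505 CPM in wild type and 81373 and 80619.9 CPM in premalignant libraries. Rps2 had the largest rise, from 429.6 and 392 to 1540.2 and 1599 CPM (log2 fold change 1.93 ± 0.17, adjusted p = 0.00193), followed by Rpl14 (345 and 302 to 1139 and 1098 CPM) and Rps12 (485 and 446 to 1420.1 and 1469.8 CPM). Rplp0, of the ribosomal stalk, rose from 1001 and 962 to 2785 and 2856 CPM. These genes have many processed pseudogenes that can share their reads. The mitochondrial ribosome moved in the same direction. In all 69 of 76 proteins were higher and 0 lower, with a median of 0.90 (61, 43, 31 and 31 higher with single libraries left out). Mrpl12 rose most of them, from 39.96 and 35.7 to 151 and 147 CPM (log2 fold change 1.98 ± 0.13, adjusted p = 0.00147). Mrpl49 was at 85.1 and 78.5 CPM and 85.7 and 80.2 CPM and was not called.

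Translation factors and tRNA charging enzymes were also higher. Of 63 initiation and elongation factors, 46 were higher and 3 lower (median 0.95; 45, 40, 38 and 32 higher with single libraries left out). Eif5a, the factor that carries hypusine made from spermidine, rose from 480.3 and 413 to 1504 and 1525 CPM (log2 fold change 1.76 ± 0.16, adjusted p = 0.00195). Eif2b3, of the guanine exchange factor of eIF2, rose from 10.9 and 10.3 to 36 and 39.8 CPM. Eef1a1, which brings aminoacyl-tRNA to the ribosome, rose from 5086 and 4692 to 11601 and 12293 CPM. The 3 members that fell are known as regulators or paralogues with other roles. They were Eef2k, the kinase that inhibits elongation (145 and 166 to 83.6 and 85.8 CPM), and Eif2c4, which is Argonaute 4 of the small RNA pathway (31 and 37.4 to 10.8 and 10.4 CPM). The last was Eif4e3, a cap-binding paralogue (0.35 and 1.22 to 0.133 and 0.181 CPM), whose wild-type libraries differed by more than 1 on the log2 scale. Among cytosolic aminoacyl-tRNA synthetases, 21 of 22 were higher and 0 lower (median 0.97). They were led by the scaffold protein Aimp2 (12.8 and 11.2 to 46.6 and 43.6 CPM), Gars (84.8 and 74.3 to 239 and 253 CPM) and Eprs (127 and 124 to 357 and 418 CPM). Of the mitochondrial synthetases, 10 of 17 were higher (7, 5, 5 and 4 with single libraries left out). Eef1a1 was no longer called without wild type 2 or premalignant 2 (adjusted p from 0.11 to 0.117). Eef2k was no longer called without premalignant 1 or premalignant 2 (adjusted p from 0.111 to 0.113). Eif4e3 was no longer called without wild type 2, premalignant 1 or premalignant 2 (adjusted p from 0.205 to 0.333).

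Protein folding, splicing, nuclear transport and protein degradation moved in the same direction. Of 28 chaperonins and chaperones, 26 were higher and 0 lower (median 1.31; 24, 18, 20 and 18 higher with single libraries left out). Hspd1, the mitochondrial Hsp60, rose from 141 and 134 to 671 and 686 CPM (log2 fold change 2.30 ± 0.20, adjusted p = 0.00193). Hspa9, the mitochondrial Hsp70, rose from 152 and 143 to 594 and 624 CPM, and Hsp90ab1, the constitutive cytosolic Hsp90, from 1224 and 1451 to 4322 and 4759 CPM. Spliceosome and splicing factors were higher in 50 of 56 cases and lower in 0 (49, 35, 31 and 29 higher with single libraries left out). Among them were Prmt5, the arginine methyltransferase that modifies Sm proteins (77.7 and 63 to 219 and 227 CPM), and Snrpd3, one of those Sm proteins (71.7 and 60.8 to 188 and 197 CPM). Of 56 nuclear pore and transport genes, 42 were higher and 0 lower (39, 29, 27 and 24 higher with single libraries left out). Of those that act in nuclear import, Ipo4 rose from 20.5 and 21.5 to 85.4 and 83.3 CPM, Ipo5 from 200.2 and 167 to 645 and 687 CPM and Ranbp1 from 107 and 86.1 to 349 and 362 CPM. Proteasome genes were higher in 35 of 44 cases and lower in 0 (34, 22, 19 and 14 higher with single libraries left out). They were led by the assembly chaperone Psmg1 (12 and 10.8 to 40.8 and 42.1 CPM; log2 fold change 1.86 ± 0.20, adjusted p = 0.00276).

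**Figure D3:**
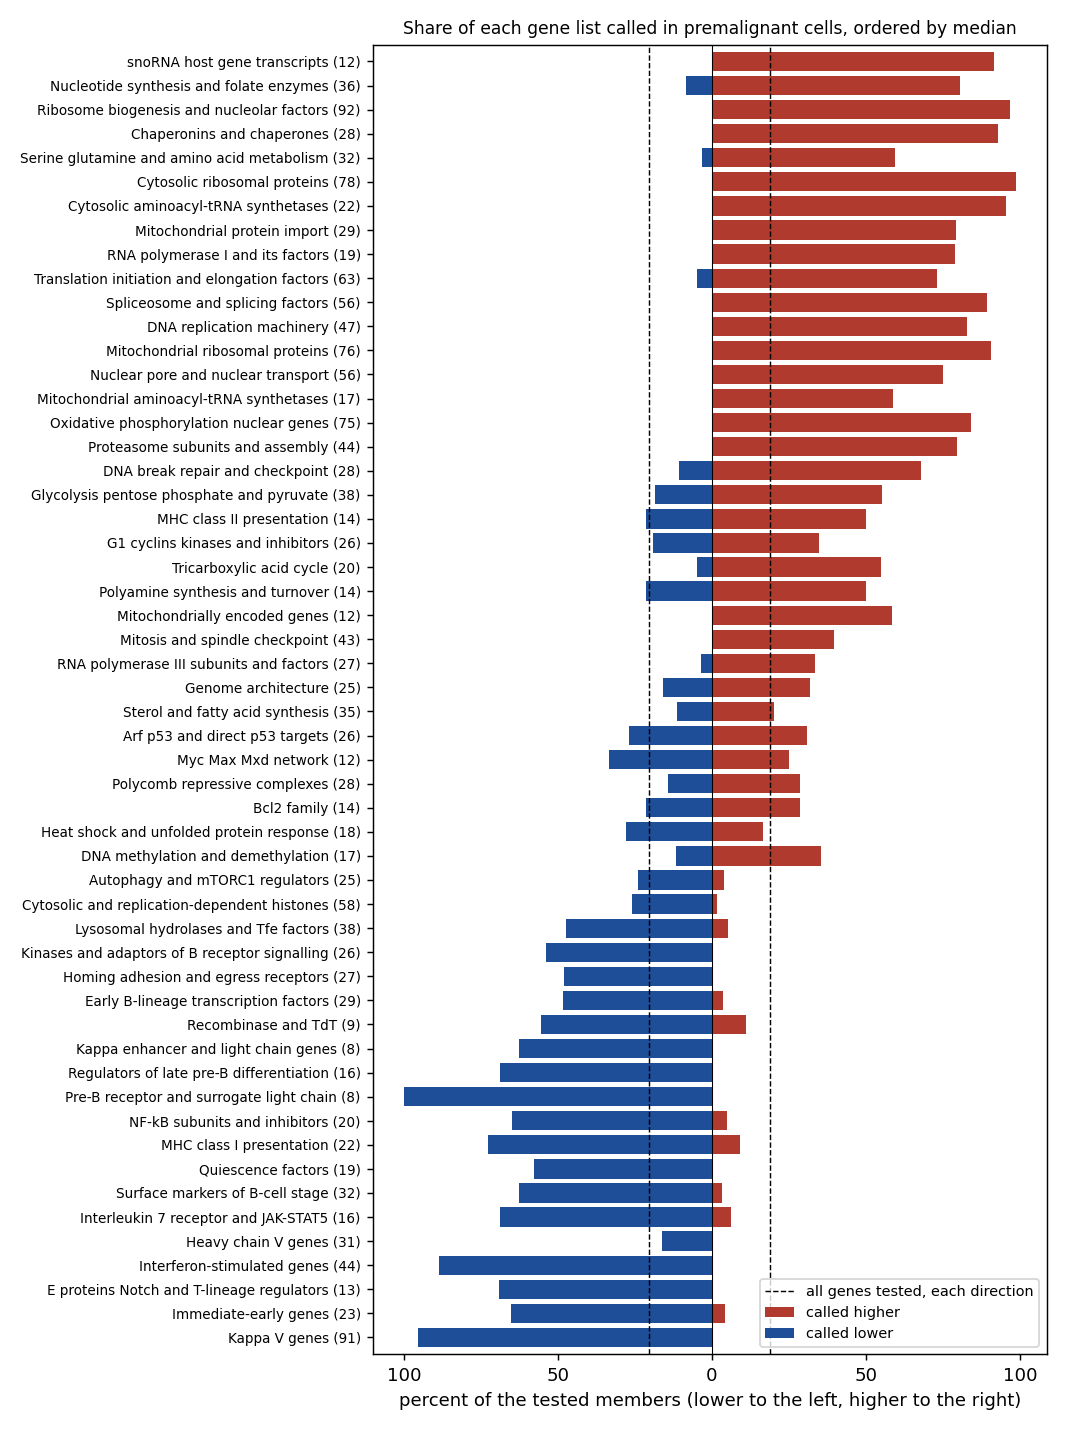
Percent of the tested members of 54 gene lists called higher (red, to the right) or lower (blue, to the left) in premalignant cells, with the number tested in brackets and dashed lines at the shares over all genes tested, 19% higher and 20.3% lower. Lists for ribosomes, translation, folding, splicing and nucleotide synthesis lie at the top with few or no falls, and lists for B-cell receptors, histocompatibility, interferon response and kappa V genes lie at the bottom.

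Polyamine, nucleotide and one-carbon enzymes held some of the largest rises. Odc1, the rate-limiting ornithine decarboxylase, rose from 88.3 and 117 to 315 and 329 CPM (log2 fold change 1.65 ± 0.27, adjusted p = 0.00785). It stood beside the spermidine synthase Srm, described above, and Mtap, which salvages the methylthioadenosine that polyamine synthesis releases (23.1 and 18.9 to 68.2 and 72.3 CPM). The 3 members of the polyamine list that fell remove polyamines or limit their synthesis. They were Sat1, an acetyltransferase (94.4 and 131 to 34.9 and 31.7 CPM; log2 fold change -1.76 ± 0.22, adjusted p = 0.00408), Oaz2, an antizyme (58.9 and 55.8 to 33.9 and 35.1 CPM), and Smox, an oxidase (5.48 and 13.8 to 2.27 and 2.59 CPM). The wild-type libraries of Smox were more than a log2 unit apart. In all, 7 of 14 were higher and 3 lower (5, 5, 5 and 4 higher with single libraries left out). Of 36 nucleotide and folate enzymes, 29 were higher and 3 lower, with a median of 1.55 (29, 26, 26 and 23 higher with single libraries left out). Shmt1 and Shmt2, which feed serine carbon into folates, rose from 27.4 and 24.5 to 179 and 178 CPM and from 64.5 and 71.9 to 415 and 418 CPM (log2 fold change 2.61 ± 0.14, adjusted p = 0.00141). Cad, the first enzyme of pyrimidine synthesis, rose from 73 and 87.6 to 393 and 429.7 CPM (log2 fold change 2.36 ± 0.16, adjusted p = 0.00147), and Uck2, a uridine-cytidine kinase, from 25.4 and 25.4 to 139 and 161 CPM. Adssl1, Impdh1 and Ctps2 fell, and each has a paralogue that catalyses the same step. Adssl1 went from 71.8 and 75.4 to 19.9 and 19.6 CPM, Impdh1 from 99.5 and 104 to 66.1 and 59 CPM and Ctps2 from 86.8 and 86.5 to 52.2 and 55.9 CPM. Impdh1 had an adjusted p of 0.00584 in a fit of the wild-type and premalignant libraries alone. Oaz2 was no longer called without premalignant 1 or premalignant 2 (adjusted p from 0.125 to 0.129). Smox and Ctps2 were no longer called without wild type 2, premalignant 1 or premalignant 2 (adjusted p from 0.117 to 0.188). Impdh1 was no longer called without any one of the 4 libraries (adjusted p from 0.122 to 0.251).

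In amino acid metabolism, 19 of 32 genes were higher and 1 lower (median 1.29; 18, 16, 15 and 15 higher with single libraries left out). Cth, which makes cysteine from cystathionine, rose from 0.788 and 0.509 to 5.69 and 8.34 CPM (log2 fold change 3.41 ± 0.38, adjusted p = 0.00298). Mat2a, the S-adenosylmethionine synthetase, rose from 313 and 198 to 761 and 579.7 CPM. The amino acid carriers Slc1a5 and Slc38a2 were not called, the first at 850.1 and 1135 against 942 and 872 CPM and the second at 374 and 338 against 439.9 and 380.5 CPM. Slc7a11, the cystine carrier, fell from 2.38 and 3.74 to 1.54 and 1.6 CPM (log2 fold change -0.96 ± 0.37, adjusted p = 0.0956). It had an adjusted p of 0.0703 in the fit of the wild-type and premalignant libraries alone. Slc7a11 was no longer called without any one of the 4 libraries (adjusted p from 0.102 to 0.399).

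Glycolysis was mixed, with 21 of 38 genes higher and 7 lower (median 0.64; 16, 17, 14 and 12 higher with single libraries left out). Ldha, the lactate dehydrogenase subunit that favours lactate, rose from 220.1 and 193 to 1048 and 1056 CPM (log2 fold change 2.35 ± 0.17, adjusted p = 0.00155). Ldhb, the subunit that favours pyruvate, fell from 4.98 and 3.57 to 0.609 and 0.452 CPM (log2 fold change -2.99 ± 0.44, adjusted p = 0.00604). Hexokinases split likewise, with Hk2 up from 10.3 and 11.5 to 57 and 53.5 CPM (log2 fold change 2.34 ± 0.22, adjusted p = 0.00216) and Hk3 down from 6.45 and 19 to 2.25 and 2.56 CPM. The wild-type libraries of Hk3, a gene abundant in myeloid cells, differed by more than 1 on the log2 scale. Eno1 rose from 149 and 137 to 488 and 523 CPM, Gapdh from 339 and 306 to 882 and 910.4 CPM and Pkm2 from 337 and 373 to 1026 and 1086 CPM. Pdk2, a kinase that inhibits pyruvate dehydrogenase, fell from 27.9 and 33.2 to 9.26 and 9.3 CPM (log2 fold change -1.72 ± 0.28, adjusted p = 0.00778). Hk3 was no longer called without wild type 2, premalignant 1 or premalignant 2 (adjusted p from 0.21 to 0.286).

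Nuclear genes for mitochondria were mostly higher. Of 75 nuclear genes of oxidative phosphorylation, 63 were higher and 0 lower, with log2 fold changes from 0.29 to 1.57 and a median of 0.77. The number called higher was 36 with the total counts as library sizes and 52, 31, 24 and 22 with single libraries left out. Atp5b, the catalytic subunit of ATP synthase, went from 764 and 672 to 1719 and 1765 CPM and Atp5g1, of its membrane ring, from 33.5 and 30.8 to 98.3 and 93.1 CPM (log2 fold change 1.57 ± 0.13, adjusted p = 0.00182). Mitochondrial import genes were higher in 23 of 29 cases and lower in 0 (22, 17, 14 and 14 higher with single libraries left out). They were led by the small chaperones Timm8a1 (12.4 and 10.2 to 59.6 and 61.1 CPM), Timm9 (10.8 and 9.34 to 46.5 and 47.3 CPM) and Timm10 (6.5 and 5.66 to 25.3 and 23.8 CPM). In the tricarboxylic acid cycle 11 of 20 genes were higher and 1 lower (10, 7, 7 and 6 higher with single libraries left out). Suclg2 rose from 23.4 and 22.9 to 75.4 and 77.6 CPM and Idh3a from 59.4 and 47.5 to 135 and 141 CPM. Of 12 genes encoded by the mitochondrial genome, 7 were higher, a count that fell to 2 with total counts as library sizes and to 2, 0, 1 and 0 with single libraries left out. mt-Co1 was at 7691 and 8752 CPM and 9543 and 10765 CPM and was not called (log2 fold change 0.30 ± 0.21, adjusted p = 0.319).

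Lipid synthesis showed no common direction, and more lysosomal genes were lower than higher. Of 35 sterol and fatty acid genes, 7 were higher and 4 lower (9, 3, 3 and 3 higher and 4, 2, 2 and 1 lower with single libraries left out). The median of 0.16 became -0.05 with total counts as library sizes. Fasn, the fatty acid synthase, rose from 99.2 and 114 to 436 and 401 CPM (log2 fold change 1.97 ± 0.16, adjusted p = 0.00182) and Acaca, the acetyl-CoA carboxylase upstream of it, from 51 and 54.3 to 147 and 148 CPM. Abca1, which exports cholesterol, fell from 71.8 and 158 to 6.53 and 2.53 CPM with a gap of more than a log2 unit between its wild-type libraries. Of 38 lysosomal genes, 18 were lower and 2 higher (median -0.61; 18, 13, 7 and 8 lower with single libraries left out). Laptm5, a lysosomal membrane protein of haematopoietic cells, fell from 736 and 696 to 130.2 and 107 CPM (log2 fold change -2.59 ± 0.16, adjusted p = 0.00147). The cathepsins Ctsb and Ctsl fell from 312 and 289 to 96.8 and 92.8 CPM and from 63.1 and 46.4 to 16 and 9.18 CPM, while Gusb, the β-glucuronidase, rose from 62 and 64.3 to 119.7 and 122 CPM. Autophagy and mTORC1 regulators were lower in 6 of 25 cases and higher in 1 (5, 7, 4 and 2 lower with single libraries left out). The adaptor Sqstm1 fell from 167 and 166 to 83.5 and 87.9 CPM and Deptor, an mTOR inhibitor, rose from 4.12 and 4.41 to 14.9 and 17.3 CPM.

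Since many genes of these growth lists rose together, their promoters were searched for the E box CACGTG, which reads the same on both strands, from 250 bases before to 50 bases after the annotated start in NCBIM37. It was present in 12.4% of 3165 promoters of genes called higher, 7.06% of 3383 of genes called lower and 8.68% of the 16620 promoters of all tested genes. Promoters of genes called higher also held more CpG dinucleotides, 20.1 on average against 14.8 for genes called lower and 17.2 over all, and the part of base composition in these shares was not tested. Ribosome biogenesis genes had it in 19 of 92 promoters (20.7%), and lysosomal genes, of which more fell than rose, in 14 of 38 (36.8%). Among the other growth and metabolism lists with more rises than falls, the share ran from 0% in mitochondrial aminoacyl-tRNA synthetases to 22.2% in RNA polymerase III. Mitochondrial ribosomal proteins were at 6.58%, nuclear genes of oxidative phosphorylation at 9.33% and cytosolic ribosomal proteins at 11.5%. The 250 bases before the start of 4 genes of the growth and cell cycle lists that rose are shown as examples of promoters with the motif, read 5′ to 3′ on the gene's strand with each CACGTG in capitals. They were chosen for having the motif, and a match is not a measured binding site. Cdk4 holds 4 copies in chr10:126500340-126500589 (plus strand), and Srm in chr4:147965362-147965611 (plus strand), Fbl in chr7:28954515-28954764 (plus strand) and Hspd1 in chr1:55145088-55145337 (minus strand) hold 1 each.
Cdk4: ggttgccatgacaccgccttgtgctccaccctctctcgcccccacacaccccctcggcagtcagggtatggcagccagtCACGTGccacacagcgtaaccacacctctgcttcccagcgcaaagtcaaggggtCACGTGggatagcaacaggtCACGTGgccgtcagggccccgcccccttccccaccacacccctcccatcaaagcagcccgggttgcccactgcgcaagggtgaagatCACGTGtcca
Srm: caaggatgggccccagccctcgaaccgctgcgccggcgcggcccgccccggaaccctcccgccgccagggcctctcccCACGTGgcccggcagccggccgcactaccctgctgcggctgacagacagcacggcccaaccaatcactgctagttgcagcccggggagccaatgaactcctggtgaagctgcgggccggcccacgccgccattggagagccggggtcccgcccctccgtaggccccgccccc
Fbl: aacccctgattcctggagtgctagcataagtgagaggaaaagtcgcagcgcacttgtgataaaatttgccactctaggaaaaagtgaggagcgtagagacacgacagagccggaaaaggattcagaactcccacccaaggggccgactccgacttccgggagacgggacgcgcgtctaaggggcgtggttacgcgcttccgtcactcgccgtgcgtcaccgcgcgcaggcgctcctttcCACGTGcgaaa
Hspd1: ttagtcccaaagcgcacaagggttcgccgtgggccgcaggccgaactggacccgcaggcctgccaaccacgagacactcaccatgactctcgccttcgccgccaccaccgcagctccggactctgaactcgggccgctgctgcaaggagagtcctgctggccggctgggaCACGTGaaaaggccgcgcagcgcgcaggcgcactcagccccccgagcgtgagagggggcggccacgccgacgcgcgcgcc

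DNA replication genes were mostly higher, and the count of mitotic genes called depended on the fit. Of 47 replication genes, 39 were higher and 0 lower, with a median log2 fold change of 0.92 (42, 23, 20 and 13 higher with single libraries left out). Pold2, a subunit of DNA polymerase δ, rose from 51.2 and 42.3 to 137 and 141 CPM (log2 fold change 1.57 ± 0.14, adjusted p = 0.00209). Mcm10 rose from 64.7 and 48.3 to 133 and 147 CPM, Mcm7, of the replicative helicase, from 331 and 276 to 629 and 677 CPM, and Pcna, the sliding clamp, from 489 and 359.8 to 754 and 793 CPM. Of 43 mitosis genes, 17 were higher and 0 lower (median 0.51), but the count was 33, 2, 2 and 2 with single libraries left out and 7 with total counts as library sizes. Wild type 1 was above wild type 2 in this list, at 8792 and 6032 CPM in sum against 10788 and 11097 CPM in premalignant libraries. Mki67, the proliferation marker, was at 1894 and 1363 and 2411 and 2732 CPM (log2 fold change 0.66 ± 0.24, adjusted p = 0.085). Aurkb, the mitotic kinase, rose from 137 and 97 to 240.0 and 227 CPM. Pcna was no longer called without premalignant 1 or premalignant 2 (adjusted p from 0.114 to 0.143). Mki67 was no longer called without wild type 2, premalignant 1 or premalignant 2 (adjusted p from 0.224 to 0.364).

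The genes that govern entry into the cycle changed in both directions. Cyclin E1 (Ccne1) rose from 31 and 20.3 to 75.5 and 78 CPM (log2 fold change 1.58 ± 0.23, adjusted p = 0.00576). Cdk4, the kinase partner of the D cyclins, rose from 176 and 151 to 412 and 431 CPM (log2 fold change 1.36 ± 0.28, adjusted p = 0.0154). Ccnd2, the D cyclin of early pre-B cells, fell from 54 and 51.1 to 11.8 and 11.3 CPM (log2 fold change -2.19 ± 0.38, adjusted p = 0.00946). Ccnd3 was at 628 and 489.9 CPM and 329.6 and 279 CPM and was not called (log2 fold change -0.88 ± 0.46, adjusted p = 0.194), but it was called lower in the fit of the 4 libraries alone and in that without a filter on low counts. The inhibitor p27, encoded by Cdkn1b, fell from 283 and 279 to 133 and 125 CPM (log2 fold change -1.13 ± 0.16, adjusted p = 0.0051). The largest rise of the list was that of Cdkn2a, which encodes p16 among its products (log2 fold change 5.17, described in the following text). In all 9 of 26 G1 genes were higher and 5 lower (11, 5, 5 and 4 higher and 3, 4, 2 and 2 lower with single libraries left out). Of 19 genes known from quiescent lymphocytes none was called higher and 11 were lower (median -1.22). The median was -1.41, -0.85, -1.25 and -1.19 without wild type 1, wild type 2, premalignant 1 and premalignant 2 in turn. Btg1, an antiproliferative factor, went from 680.3 and 847 to 132 and 133 CPM (log2 fold change -2.53 ± 0.30, adjusted p = 0.00348). Klf4 and Klf6, in the same list, were at 11.2 and 162 against 1.56 and 4.91 CPM and at 66.5 and 179 against 16 and 21 CPM, and both differed between the wild-type libraries. Cdk4 was no longer called without wild type 2 or premalignant 2 (adjusted p from 0.102 to 0.113). Klf4 was no longer called without wild type 2, premalignant 1 or premalignant 2 (adjusted p from 0.125 to 0.197).

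The alternative reading frame protein and p53 axis and the Bcl2 family showed opposite changes in single members. As lists they were not far from the 19% higher and 20.3% lower over all genes tested. The shares were 30.8% and 26.9% for the p53 list and 28.6% and 21.4% for the Bcl2 family. Cdkn2a, which encodes both p16 and p19Arf, was at 0.193 and 0.0566 CPM in wild-type libraries (11 and 2 counts) and at 4.13 and 5.6 CPM (217 and 186 counts) in premalignant libraries (log2 fold change 5.17 ± 1.56, adjusted p = 0.0492). The counting does not separate its products. Trp53 rose from 155 and 153 to 297 and 273 CPM (log2 fold change 0.89 ± 0.13, adjusted p = 0.0062). Of 26 genes of the list, with the direct targets of p53, 8 were higher and 7 lower (7, 5, 3 and 3 higher and 5, 3, 0 and 1 lower with single libraries left out). Bbc3 (Puma), a proapoptotic target, rose from 3.38 and 5.12 to 13.3 and 12.9 CPM (log2 fold change 1.62 ± 0.31, adjusted p = 0.0128). Btg2, another target, fell from 525 and 790.0 to 286 and 275 CPM. Among 14 Bcl2 family genes 4 were higher and 3 lower (3, 3, 2 and 2 higher and 2, 2, 2 and 2 lower with single libraries left out). Bcl2l1, which encodes the survival protein Bcl-xL, fell from 169 and 177 to 20.1 and 20.2 CPM (log2 fold change -3.11 ± 0.14, adjusted p = 0.0013). Bcl2 fell from 15 and 10.5 to 4.36 and 3.22 CPM (log2 fold change -1.74 ± 0.55, adjusted p = 0.0544) and the BH3-only gene Bmf from 141 and 183 to 11.3 and 15.3 CPM (log2 fold change -3.61 ± 0.68, adjusted p = 0.012). The proapoptotic Bid rose from 23 and 24.6 to 60.5 and 66.5 CPM, Bax from 44.1 and 52 to 87.3 and 83.7 CPM and Bcl2l11 (Bim) from 50.1 and 41.2 to 74.8 and 63.6 CPM. Mcl1, at 419 and 409 and 313 and 309.8 CPM, was not called except as lower with total counts as library sizes. Cdkn2a, Bcl2 and Bcl2l11 had adjusted p-values of 0.000845, 0.00337 and 0.0129 in the fit of the 4 libraries alone. Bax was no longer called without premalignant 1 or premalignant 2 (adjusted p from 0.102 to 0.106). Btg2 was no longer called without wild type 2, premalignant 1 or premalignant 2 (adjusted p from 0.119 to 0.145). Cdkn2a, Bcl2 and Bcl2l11 were no longer called without any one of the 4 libraries (adjusted p from 0.127 to 0.325).

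DNA repair genes were mostly higher, with 19 of 28 up and 3 down (18, 8, 6 and 5 higher with single libraries left out, and 12 with total counts as library sizes). The 2 subunits of the Ku end-binding heterodimer went in opposite directions. Xrcc5 (Ku80) rose from 16.8 and 15.8 to 57.8 and 65.3 CPM (log2 fold change 1.92 ± 0.24, adjusted p = 0.00389) and Xrcc6 (Ku70) fell from 489 and 537 to 265 and 265 CPM (log2 fold change -0.95 ± 0.26, adjusted p = 0.0383). The other members that fell, Dclre1c (Artemis, 80.04 and 99.6 to 42.3 and 35.7 CPM) and Lig4 (DNA ligase IV, 155 and 110.3 to 82.2 and 80.01 CPM), act with them in end joining of V(D)J breaks. Chek1, the replication checkpoint kinase, rose from 40.3 and 26.6 to 78.6 and 74.6 CPM. Xrcc6 had an adjusted p of 0.00137 in the fit of the 4 libraries alone. Lig4 was no longer called without wild type 1, premalignant 1 or premalignant 2 (adjusted p from 0.251 to 0.31). Xrcc6 was no longer called without any one of the 4 libraries (adjusted p from 0.112 to 0.198).

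Within the network of MYC partners and antagonists, 3 of 12 genes were higher and 4 lower (1, 2, 1 and 1 higher and 2, 1, 1 and 0 lower with single libraries left out). Max, the obligate partner, was at 88.7 and 81.6 CPM and 123 and 119 CPM (log2 fold change 0.50 ± 0.18, adjusted p = 0.0821). The repressor Mnt was at 38.3 and 51.6 CPM and 66.1 and 69 CPM (log2 fold change 0.59 ± 0.18, adjusted p = 0.0479). Mxd1, which competes with MYC for MAX, fell from 42.4 and 61.6 to 19 and 16.3 CPM (log2 fold change -1.56 ± 0.30, adjusted p = 0.0128). The paralogues fell too, Mycn from 1.75 and 2.52 to 0.381 and 0.452 CPM and Mycl1 from 10.8 and 9.17 to 2.13 and 0.903 CPM. Max and Mycl1 had adjusted p-values of 0.00785 and 0.00341 in the fit of the 4 libraries alone. Mxd1 was no longer called without premalignant 2 (adjusted p = 0.114). Mnt was no longer called without wild type 1, premalignant 1 or premalignant 2 (adjusted p from 0.146 to 0.238). Mycn was no longer called without wild type 2, premalignant 1 or premalignant 2 (adjusted p from 0.14 to 0.172). Max and Mycl1 were no longer called without any one of the 4 libraries (adjusted p from 0.156 to 0.29).

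Before the genes that fell, the libraries were compared for RNA of other cells and for the state of the wild-type libraries, since both moved with the groups. Markers of natural killer cells summed to 384 and 126 CPM in wild type and 20.4 and 5.3 CPM in premalignant libraries, and all 10 of them were called lower. Neutrophil markers were at 1062 and 2571 against 337 and 343 CPM (9 of 10 lower) and monocyte markers at 283 and 312 against 66.4 and 77 CPM (7 of 9). Plasmacytoid dendritic cell markers were at 499.5 and 353 against 147 and 94.3 CPM (5 of 8) and T cell markers at 132 and 87.4 against 48.8 and 27.7 CPM (6 of 10). Erythroid markers were at 790.3 and 1882 against 685 and 711 CPM (7 of 10 lower) and plasma cell markers at 871 and 756 against 387 and 377 CPM (5 of 6). Most of the plasma cell sum came from Irf4, which is also listed in the following text as a regulator of late pre-B differentiation. The erythroid sum was 1.91 times as high in wild type, although the median log2 fold change of the list was -2.59. A single erythroid marker had a log2 fold change above 0. Markers of mature B cells were at 355 and 539 against 335 and 412 CPM (6 of 9). Stromal and endothelial markers were at 215 and 264 against 88.7 and 108 CPM (3 of 8) and mast cell and basophil markers at 1.35 and 4.98 against 0.514 and 0.482 CPM (2 of 4). Megakaryocyte markers were at 3.89 and 8.24 against 2.21 and 3.01 CPM (0 of 3). In each of these lists except that of mature B cells, both wild-type sums were above both premalignant sums. With single libraries left out, 7, 10, 10 and 5 of the natural killer markers and 10, 5, 4 and 4 of the neutrophil markers were called lower. Fewer cells of a type and less of its RNA per cell cannot be told apart in such libraries. The part of these cells in the falls described in the text before and after this paragraph was not tested. The same holds for the mix of pro-B and pre-B stages within the gate.

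**Figure D4:**
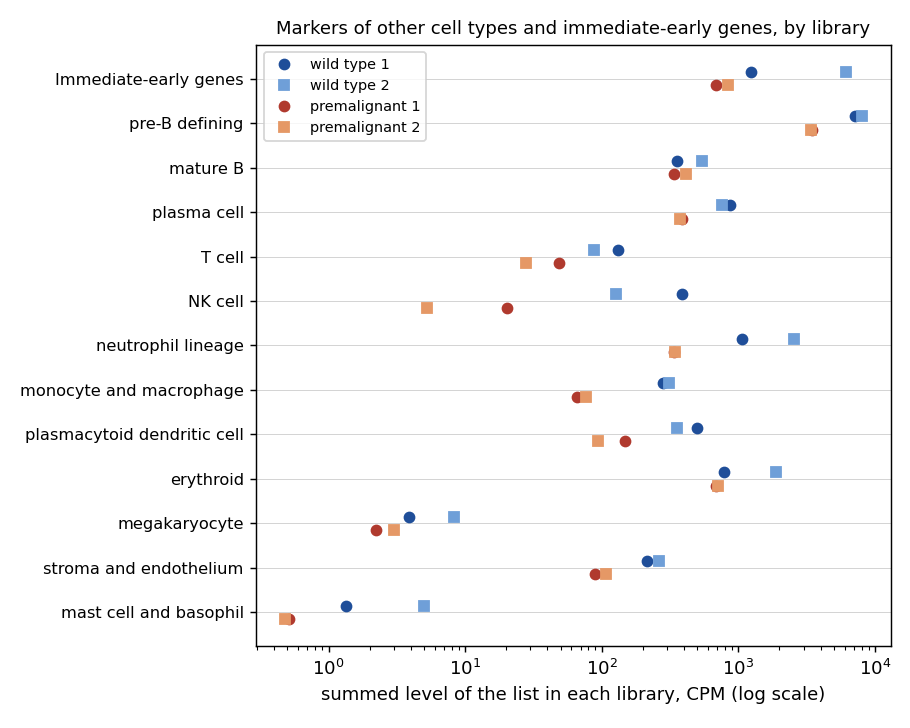
Summed level in CPM (log scale) of the marker genes of each cell type and of the immediate-early genes, in wild type 1 and 2 (blue) and premalignant 1 and 2 (red and orange). Natural killer markers were at 384 and 126 CPM in wild type and at 20.4 and 5.30 CPM in premalignant libraries, and immediate-early genes stood at 6158 CPM in wild type 2 against 1233 CPM in wild type 1.

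The wild-type libraries also differed from each other, and the animal cannot be told apart from the handling of its sample. In 1453 of the genes tested (8.71%) these libraries were apart by at least 1 on the log2 scale, with 1015 genes higher in wild type 2 and 438 higher in wild type 1. The premalignant libraries were apart by as much in 1382 genes. Such genes were 99 of the 3169 called higher (3.12%) and 406 of the 3394 called lower (12%). In 5 of the higher and 33 of the lower genes the gap between the wild-type libraries was at least as large as the gap between the mean log2 levels of the groups. The 10 genes with the largest gaps at 10 CPM or more were all higher in wild type 2. In wild type Fosb was at 0.28 and 351 CPM and Fos at 0.648 and 619.8 CPM. Both were also higher in premalignant 2 than in premalignant 1, at 0.59 and 30.3 and 0.286 and 18.9 CPM, so that neither was called (log2 fold change -5.04 ± 2.65, adjusted p = 0.194 for Fos). Without wild type 2 the log2 fold changes of Fos and Fosb were 3.89 and 5.77, opposite in sign to those with all libraries. Hspa1b, an inducible Hsp70, was at 1.19 and 43 CPM and 0.971 and 0.873 CPM, and Dusp1 at 9.86 and 149.9 and 5.85 and 8.25 CPM. Rhob was at 11.3 and 172 and 7.43 and 11.3 CPM, and the histone gene Hist1h2bg at 0.753 and 20.9 and 0.438 and 0.361 CPM. The globin genes Hba-a1 and Hba-a2 were at 13.1 and 257 and 4.78 and 82.6 CPM in wild-type libraries and were not called. Hspa1b, Dusp1, Rhob and Hist1h2bg were no longer called without wild type 2, premalignant 1 or premalignant 2 (adjusted p from 0.204 to 0.77).

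Of 23 immediate-early genes tested, 15 were lower in premalignant cells and 1 was higher (Nr4a2, 1.58 and 1.56 to 4.86 and 4.22 CPM). In 17 of the 23, 13 of them called lower, the wild-type libraries differed by 1 or more. Without wild type 2 the list had 6 lower genes, against 19, 6, 3 and 3 with each library left out in turn. Egr2 was called lower in all those fits, from 1.4 and 4.16 to 0.0762 and 0.0602 CPM (log2 fold change -5.26 ± 0.78, adjusted p = 0.00608), although its wild-type libraries were apart by more than a log2 unit. Heat shock and unfolded protein genes were lower in 5 of 18 cases and higher in 3 (4, 1, 1 and 0 lower and 1, 0, 0 and 1 higher with single libraries left out). These shares, 27.8% lower and 16.7% higher, were not far from the 20.3% and 19% over all genes tested. Hspa5, the chaperone that marks the unfolded protein response, was at 347 and 358 CPM and 459.9 and 416 CPM and was not called (log2 fold change 0.31 ± 0.31, adjusted p = 0.479). Replication-dependent and other histone genes were lower in 15 of 58 cases and higher in 1 (10, 2, 0 and 1 lower with single libraries left out). Hist1h1c was at 25.1 and 179 CPM in wild-type and 9.88 and 13.2 CPM in premalignant libraries. Messages of replication-dependent histones for the most part lack a poly(A) tail and are captured poorly in such libraries. Nr4a2 and Hist1h1c were no longer called without wild type 2, premalignant 1 or premalignant 2 (adjusted p from 0.101 to 0.195).

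**Figure D5:**
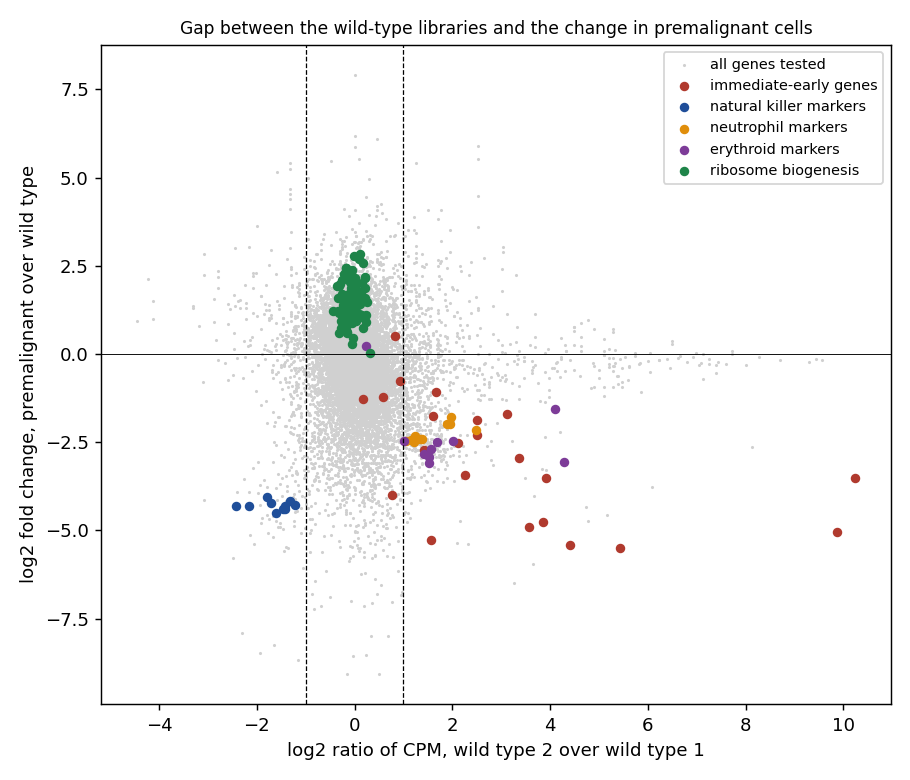
Log2 fold change in premalignant cells (vertical) against the log2 ratio of wild type 2 over wild type 1 (horizontal) for all tested genes, with dashed lines at a ratio of 1 and -1. Ribosome biogenesis genes lie between the dashed lines, whereas natural killer markers lie to the left and most immediate-early, neutrophil and erythroid genes to the right.

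Transcription factors of early B-cell development were lower or not called, with 1 exception. Of 29 tested, 14 were lower and 1 was higher (median -0.70; 9, 10, 7 and 5 lower with single libraries left out). Ebf1, a factor that specifies the B lineage, fell from 527 and 537 to 204 and 194 CPM (log2 fold change -1.42 ± 0.17, adjusted p = 0.0033). Foxo1, which sustains Rag and Il7r transcription, fell from 310.5 and 289 to 84.2 and 79.6 CPM (log2 fold change -1.87 ± 0.14, adjusted p = 0.00159). Pax5, which maintains B-cell commitment, fell from 211 and 308 to 164 and 185 CPM (log2 fold change -0.58 ± 0.20, adjusted p = 0.0752). Ikzf1 (1095 and 977 against 792 and 818 CPM) and Pou2af1 (1264 and 1151 against 1289 and 1414 CPM) were not called, though Ikzf1 was called lower with total counts as library sizes. Also lower were Erg, a stem and progenitor cell factor (55.2 and 61 to 3.69 and 2.62 CPM; log2 fold change -4.19 ± 1.06, adjusted p = 0.0295), and Id2, an inhibitor of E proteins (25.5 and 24.6 to 2.8 and 2.38 CPM; log2 fold change -3.27 ± 0.37, adjusted p = 0.00313). Id3, another such inhibitor, was the member that rose, from 41.3 and 53.3 to 77.2 and 85.2 CPM. In the fit of the 4 libraries alone the adjusted p was 0.000238 for Erg and 0.00637 for Id3. Pax5 was no longer called without wild type 2, premalignant 1 or premalignant 2 (adjusted p from 0.231 to 0.331). Erg and Id3 were no longer called without any one of the 4 libraries (adjusted p from 0.119 to 0.242).

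All 8 genes of the pre-B cell receptor list were lower, and 5, 3, 1 and 1 were called lower with single libraries left out. Of the surrogate light chains, Vpreb1 was at 114 and 131 CPM in wild-type and 9.73 and 4.88 CPM in premalignant libraries (log2 fold change -4.06 ± 1.08, adjusted p = 0.0336). Igll1 (λ5) was at 197 and 195 and 18.8 and 9.58 CPM (log2 fold change -3.78 ± 1.20, adjusted p = 0.0569). In a fit of the wild-type and premalignant libraries alone the adjusted p was 0.000436 for Vpreb1 and 0.000483 for Igll1. The signalling chains fell from 1103 and 1479 to 801 and 866 CPM for Cd79a (log2 fold change -0.63 ± 0.19, adjusted p = 0.0493) and from 1121 and 1297 to 673 and 709 CPM for Cd79b (log2 fold change -0.81 ± 0.15, adjusted p = 0.0117). Of 9 recombination genes 5 were lower and 1 higher (2, 3, 2 and 2 lower with single libraries left out). Rag1, of the V(D)J recombinase, fell from 1944 and 1797 to 328 and 286 CPM (log2 fold change -2.61 ± 0.45, adjusted p = 0.00947). Rag2 fell from 153 and 81.7 to 44.8 and 43.4 CPM (log2 fold change -1.41 ± 0.52, adjusted p = 0.0838), and Dntt, the terminal transferase of pro-B cells, from 264 and 220.4 to 21.2 and 10.8 CPM (log2 fold change -3.91 ± 1.22, adjusted p = 0.0535). With the 4 libraries alone the adjusted p was 0.00954 for Rag2 and 0.000498 for Dntt. The member that rose was Hmgb2, a general DNA-bending protein that assists the recombinase, from 956 and 748 to 1226 and 1349 CPM. Cd79b was no longer called without premalignant 1 or premalignant 2 (adjusted p from 0.125 to 0.135). Cd79a and Hmgb2 were no longer called without wild type 2, premalignant 1 or premalignant 2 (adjusted p from 0.179 to 0.281). Vpreb1, Igll1, Rag2 and Dntt were no longer called without any one of the 4 libraries (adjusted p from 0.114 to 0.36).

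Receptors and signalling genes of pre-B cells were lower in most cases. In the interleukin 7 and STAT5 pathway 11 of 16 genes were lower and 1 higher (median -1.30; 9, 9, 7 and 6 lower with single libraries left out). Il7r fell from 495 and 397 to 99.97 and 71.4 CPM (log2 fold change -2.38 ± 0.26, adjusted p = 0.00276), and Kit, the stem cell factor receptor, from 17.1 and 14 to 1.64 and 0.813 CPM (log2 fold change -3.65 ± 0.61, adjusted p = 0.0084). Of the targets of STAT5, Cish fell from 4.29 and 4.13 to 0.609 and 0.331 CPM and Pim1 from 129.8 and 191 to 47.1 and 64.9 CPM. The paralogous kinase Pim3 rose from 22.2 and 25.3 to 51.8 and 43 CPM. Of 26 kinases and adaptors of the B-cell receptor 14 were lower and none higher (13, 11, 5 and 4 lower with single libraries left out). Among them were the adaptors Blnk (461 and 491 to 239.7 and 217 CPM; log2 fold change -1.06 ± 0.14, adjusted p = 0.00421) and Pik3ap1 (641 and 644 to 211 and 175 CPM). Of 16 regulators of late pre-B differentiation 11 were lower and none higher (7, 6, 4 and 3 lower with single libraries left out). Irf4, which promotes light-chain rearrangement, fell from 685 and 602 to 306 and 309.6 CPM (log2 fold change -1.06 ± 0.15, adjusted p = 0.00499), Bach2 from 1085 and 1070.2 to 469.6 and 442 CPM and Spib from 1584 and 1726 to 754 and 749.8 CPM. Ikzf3 (Aiolos) was at 349 and 532 CPM and 290.2 and 372 CPM and was not called (log2 fold change -0.41 ± 0.25, adjusted p = 0.253). Pim3 was no longer called without premalignant 1 (adjusted p = 0.125). Bach2 was no longer called without premalignant 2 (adjusted p = 0.104).

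Stage markers at the surface were lower in 20 of 32 cases and higher in 1 (16, 13, 10 and 12 lower with single libraries left out). Il2ra (CD25), the marker of small pre-B cells, fell from 212 and 225 to 13.1 and 9.61 CPM (log2 fold change -4.27 ± 0.25, adjusted p = 0.00147). Cd24a was at 1878 and 1768 CPM and 1408 and 1471 CPM and was not called. Cd69, an activation marker, fell from 26.7 and 119.5 to 2.29 and 3.22 CPM with a gap between the wild-type libraries of more than 1 on the log2 scale. Homing and adhesion receptors were lower in 13 of 27 cases and higher in none (10, 6, 3 and 4 lower with single libraries left out). Cxcr4, which retains precursors in bone marrow, was at 567 and 498 CPM and 295 and 199 CPM (log2 fold change -1.11 ± 0.41, adjusted p = 0.0832, and 0.00685 in the fit of the 4 libraries alone). S1pr3, a sphingosine phosphate receptor, fell from 3.28 and 3.71 to 0.248 and 0.12 CPM. E proteins, Notch genes and T-lineage regulators were lower in 9 of 13 cases and higher in none (6, 6, 4 and 5 lower with single libraries left out). Notch1 fell from 128 and 154 to 49.98 and 53.7 CPM (log2 fold change -1.44 ± 0.15, adjusted p = 0.00264) and Tox from 3.84 and 2.32 to 0.19 and 0.0602 CPM, while Notch2 was not called at 84.6 and 123 and 84.9 and 115 CPM. Cxcr4 was no longer called without any one of the 4 libraries (adjusted p from 0.169 to 0.357).

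Light-chain transcripts were lower. Of 91 kappa V genes tested 87 were lower and none higher, with a median log2 fold change of -3.75. Their summed level was 261 and 403 CPM in wild-type and 34.2 and 40.9 CPM in premalignant libraries (81, 67, 56 and 57 lower with single libraries left out). Igkv1-135 fell from 23.4 and 37.8 to 1.43 and 1.26 CPM (log2 fold change -4.50 ± 0.53, adjusted p = 0.00338), and Igkv19-93 from 11.5 and 18.1 to 1.49 and 1.81 CPM. The kappa constant gene Igkc fell from 518 and 830.3 to 291 and 379 CPM (log2 fold change -1.01 ± 0.27, adjusted p = 0.0337), and Iglc3, of the lambda locus, from 102 and 145 to 14.1 and 23.7 CPM. Of the heavy-chain V genes 5 of 31 were lower and none higher, a share under that of lower genes among all genes tested, with a median of -1.34. Their sum was 146 and 190.1 CPM in wild-type and 65.7 and 69.5 CPM in premalignant libraries. With only the wild-type and premalignant libraries in the fit, 28 of the heavy-chain V genes were called lower, and with single libraries left out 0, 0, 0 and 1 were. V genes are close copies that can share or lose reads, so single values are uncertain. Igkc was no longer called without wild type 2, premalignant 1 or premalignant 2 (adjusted p from 0.12 to 0.209).

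Antigen presentation divided between its classes. Of 22 class I genes 16 were lower and 2 higher (median -1.16; 16, 15, 14 and 13 lower with single libraries left out). The classical genes H2-K1 and H2-D1 fell from 1125 and 1338 to 295 and 309.8 CPM (log2 fold change -2.03 ± 0.19, adjusted p = 0.00211) and from 1234 and 1477 to 374 and 390.1 CPM (log2 fold change -1.83 ± 0.17, adjusted p = 0.0022). B2m, their light chain, fell from 1365 and 1133 to 471 and 501 CPM (log2 fold change -1.36 ± 0.17, adjusted p = 0.00379). H2-Q7, of the Qa-2 genes, fell from 311 and 325 to 8.29 and 8.76 CPM (log2 fold change -5.22 ± 0.38, adjusted p = 0.00159). The class I members that rose, Canx (282 and 248 to 605 and 683 CPM) and Erap1 (100.1 and 92.4 to 139 and 159 CPM), are a chaperone and a peptidase of the endoplasmic reticulum. Of 14 class II genes 7 were higher and 3 lower, but 1, 0, 3 and 1 were higher with single libraries left out. Ciita, the class II transactivator, was at 29.9 and 28.4 CPM in wild-type and 82.2 and 89.8 CPM in premalignant libraries (log2 fold change 1.56 ± 0.57, adjusted p = 0.0842). H2-Eb1 was at 41.5 and 33.2 and 205 and 232 CPM (log2 fold change 2.55 ± 0.50, adjusted p = 0.0138) and Cd74, the invariant chain, at 286 and 338 and 848 and 876 CPM (log2 fold change 1.47 ± 0.36, adjusted p = 0.0276). In the fit of the 4 libraries alone the adjusted p was 0.000323 for Ciita and 0.000417 for Cd74. H2-Eb1 was no longer called without wild type 2 (adjusted p = 0.112). Erap1 was no longer called without wild type 2, premalignant 1 or premalignant 2 (adjusted p from 0.101 to 0.19). Ciita and Cd74 were no longer called without any one of the 4 libraries (adjusted p from 0.12 to 0.296).

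Interferon-stimulated genes fell nearly as a list. Of 44 tested 39 were lower and none higher, with log2 fold changes from -3.97 to -0.24 and a median of -1.71 (31, 29, 20 and 20 lower with single libraries left out). The wild-type libraries differed by 1 or more in 2 of them. The antiviral genes Ifit3 and Oasl2 fell from 5.36 and 3.71 to 0.305 and 0.271 CPM (log2 fold change -3.96 ± 0.44, adjusted p = 0.00286) and from 13.5 and 10.7 to 1.1 and 0.843 CPM. Of 20 NF-kB subunits and inhibitors 13 were lower and 1 higher (median -1.15; 13, 9, 7 and 7 lower with single libraries left out). Nfkbia, the inhibitor that NF-kB itself induces, fell from 174 and 225 to 53.7 and 54.1 CPM (log2 fold change -1.89 ± 0.16, adjusted p = 0.00193). Nfkb2 fell from 85.1 and 109.6 to 16 and 15.1 CPM (log2 fold change -2.65 ± 0.29, adjusted p = 0.00276) and Bcl3 from 15.8 and 20.8 to 1.16 and 0.933 CPM (log2 fold change -4.12 ± 0.46, adjusted p = 0.00295). Traf3, an adaptor that restrains the noncanonical pathway, rose from 69.9 and 84.1 to 122 and 132 CPM. Traf3 was no longer called without premalignant 2 (adjusted p = 0.138).

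Chromatin regulators were called in both directions, in shares not far from the 19% higher and 20.3% lower over all genes tested. The shares higher and lower were 28.6% and 14.3% for polycomb, 35.3% and 11.8% for DNA methylation and 32% and 16% for genome architecture. Of 28 polycomb genes 8 were higher and 4 lower, and with total counts as library sizes 3 and 7 (8, 3, 3 and 2 higher and 4, 1, 2 and 1 lower with single libraries left out). Ezh2, the methyltransferase, was at 505 and 375 CPM and 440.4 and 429 CPM and was not called (log2 fold change -0.02 ± 0.30, adjusted p = 0.972). Pcgf6 rose from 13.4 and 13.2 to 46.1 and 45.8 CPM (log2 fold change 1.79 ± 0.14, adjusted p = 0.00179) and Cbx7, a reader of the mark, fell from 96 and 138 to 44 and 39.4 CPM (log2 fold change -1.49 ± 0.21, adjusted p = 0.00535). Of 17 DNA methylation genes 6 were higher and 2 lower (6, 3, 2 and 2 higher with single libraries left out). The maintenance methyltransferase Dnmt1 rose from 485 and 382 to 995 and 1054 CPM (log2 fold change 1.24 ± 0.18, adjusted p = 0.00568) and the demethylase Tet2 was at 38.5 and 52.5 and 27 and 31.6 CPM (log2 fold change -0.64 ± 0.21, adjusted p = 0.0659). Among 25 genome architecture genes 8 were higher and 4 lower (12, 2, 3 and 1 higher with single libraries left out, and 2 with total counts as library sizes). Lmnb2, a B-type lamin, rose from 74.6 and 64.9 to 151 and 152 CPM (log2 fold change 1.12 ± 0.21, adjusted p = 0.0129). Satb1, a chromatin organiser of lymphocytes, was at 102 and 108 CPM and 24.6 and 21.3 CPM (log2 fold change -2.20 ± 0.74, adjusted p = 0.0672, and 0.000255 in the fit of the 4 libraries alone). Wapal, which releases cohesin, fell from 63.5 and 49.6 to 26.4 and 22.3 CPM (log2 fold change -1.21 ± 0.19, adjusted p = 0.00702). Tet2 was no longer called without wild type 2, premalignant 1 or premalignant 2 (adjusted p from 0.202 to 0.318). Satb1 was no longer called without any one of the 4 libraries (adjusted p from 0.191 to 0.279).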

How the data were processed

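RNA-seq libraries of sorted bone marrow pre-B cells were analysed, with 2 animals for each of wild-type, premalignant and malignant stages, and groups were taken from the sample titles. The authors sequenced 50-bp single-end reads, aligned them with TopHat, counted them with HTSeq and deposited raw counts per Ensembl gene without normalization. The submitters' processing notes name CASAVA 1.8.2, Bowtie, HTSeq, DESeq and the build mm9, and the HTSeq options, strand included, are not given in the sources used here. The authors also deposited DEseq tables with fold changes and p-values of their own comparisons against malignant cells, which were not used here.

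All 6 libraries entered 1 edgeR quasi-likelihood fit (edgeR 4.0.16, R 4.3.3) after TMM scaling and the low-count filter that edgeR applies by default. The contrast was premalignant minus wild type, so the spread estimate includes the malignant libraries. Adjusted p-values are edgeR's, by Benjamini-Hochberg over the 16683 genes tested. Genes were called where the FDR was 0.1 or less and the log2 fold change 0.5 or more in size. The ± values are SEs, computed from the log2 fold change and its F statistic. TMM takes most genes as unchanged, and a change in total RNA per cell would not be seen. P-values measure the spread between animals as labelled over all stages, not that of the wild-type and premalignant animals alone. The SD of the log2 gap between the libraries of a stage was 0.77 for malignant, 0.38 for wild-type and 0.23 for premalignant mice (8882 genes of at least 10 CPM). Counting intervals and the floor of 3 counts cover counting error only.

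Symbols, coordinates and promoters came from GENCODE vM1 and the genome NCBIM37 (mm9), which gave a symbol for 37205 of 37991 identifiers. The gap between libraries of a group is the log2 ratio of CPM with 0.5 counts added. Named genes were the 12 largest rises and falls with a symbol, 10 CPM in the higher group and groups that do not overlap, up to 3 called members with the largest rise, 3 with the largest fall and 3 with the highest mean CPM in each list, the 10 genes with the largest gap between wild-type libraries, and a set of 27 genes of MYC and pre-B biology. 2 genes that these rules name are not reported here. The comparison, the gene lists and these rules were chosen with earlier results of these data known. Lists are described by counts and medians, without a set test. Genes with close copies (immunoglobulin, histocompatibility, histone, globin and ribosomal protein genes) can share reads and are uncertain. Alternatives were DESeq2 1.42.0, other scalings, filters and thresholds, a fit of 4 libraries, the replicate number as a block and each library left out. The scripts were tested on simulated data.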

Additional observations from a re-analysis of the deposited data

How the results depend on the processing

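The numbers of genes called were 3169 higher and 3394 lower. With single libraries left out, they ranged from 1231 to 2513 for higher genes and from 863 to 2237 for lower genes, in fits where the lone library of a group is taken to vary like the other groups. A minimum log2 fold change of 1 in size left 1750 higher and 2532 lower genes. DESeq2 called 3261 and 3196, upper-quartile scaling 2812 and 3802, total counts as library sizes 2250 and 4434, no filter 3359 and 4091, at least 10 counts in every library 2845 and 2827, and the 4 libraries alone 3997 and 4248. An FDR of at most 0.05 left 2565 and 2493, and no minimum fold gave 3435 and 3567. At a gap of at least 2 in place of 1 on the log2 scale, 356 in place of 1453 genes differed between the wild-type libraries.

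The replicate numbers are not said to pair animals. For that reason the numbers were not taken as a pairing. Deviations of same-numbered libraries correlated at 0.38 between wild type and premalignant, the groups compared, over 8882 genes of at least 10 CPM. The correlation was -0.04 between wild type and malignant and -0.07 between premalignant and malignant libraries. What same-numbered wild-type and premalignant libraries share was not tested. With the replicate number as a block, 3167 genes were higher and 3408 lower, and 3048 and 3249 of them were also called without it. Among the genes named with values the block ended the calls of Dusp1, Hspa1b, Max, Mki67 and Slc7a11 (adjusted p from just over 0.1 to 0.129) and made Hba-a1 a lower gene (adjusted p = 0.0675). In each stage the replicate 1 library had more counts than the replicate 2 library.

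Of 209 genes named with values, all kept direction and call with DESeq2. Total counts as library sizes ended 9 calls (Bcl2l11, Ciita, Erap1, Hmgb2, Id3, Max, Mki67, Mnt and Ubtf), and upper-quartile scaling ended 3 of these (Bcl2l11, Max and Mki67). At least 10 counts in every library ended that of Max, and no filter that of Slc7a11. Calls were also gained, all of them lower: Maf1 (log2 fold change -0.53 with upper-quartile scaling, -0.65 with total counts and -0.51 with at least 10 counts in every library), Mcl1 and Ikzf1 (-0.62 and -0.57 with total counts), Ccnd3 (-0.82 with the 4 libraries alone and -0.87 with no filter), and Fos, Fosb, Hba-a1 and Hba-a2 with no filter. The fit with no filter gave Fos an adjusted p of 4.25e-97, against 0.194 in the fit reported, although its libraries within a group were far apart. Its p-values do not carry the spread between libraries of such genes, and calls gained in it are not read as changes. Genes that changed sign were not called in the fit reported. Mrpl49 was at -0.064 with upper-quartile scaling, -0.19 with total counts and -0.0425 with at least 10 counts in every library. Pou2af1 was at -0.0472 and Slc38a2 at -0.0034 with total counts, and Ezh2 at 0.0396 with the 4 libraries alone. With single libraries left out, log2 fold changes ranged from -0.21 to 0.22 for Ezh2, from -10.06 to 3.89 for Fos, from -8.19 to 5.77 for Fosb, from -5.87 to 0.32 for Hba-a1, from -2.47 to 1.64 for Hba-a2, from -0.0339 to 0.0859 for Mrpl49, from -0.30 to 0.24 for Notch2 and from -0.32 to 0.10 for Slc1a5. The causes were not tested.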

Other observations

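A view of all genes by symbol, with families as symbols that share their leading letters and have at least 15 tested genes, gave 101 families. The highest shares called higher were in Mrps (28 of 30 genes, 93.3%), Mrpl (42 of 49, 85.7%), Nup (15 of 20, 75%), Rps (48 of 64, 75%), Polr (20 of 27, 74.1%) and Rpl (70 of 103, 68.0%), which are ribosomal proteins, nucleoporins and RNA polymerase subunits. Rps and Rpl include pseudogenes, and in 11 of the 103 Rpl genes the wild-type libraries differed by 1 or more on the log2 scale. The highest shares called lower were in Igkv (88 of 92, 95.7%), the C-type lectins Clec (14 of 23, 60.9%), the Cd surface antigens (49 of 83, 59.0%), the Trim ubiquitin ligases (29 of 52, 55.8%), the interleukins and their receptors Il (25 of 46, 54.3%) and the G-protein-coupled receptors Gpr (26 of 48, 54.2%). The wild-type libraries differed by 1 or more in 8 of the 23 Clec genes, 15 of the 83 Cd genes and 8 of the 46 Il genes.

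By gene type, 2805 of 13792 protein-coding genes were higher (20.3%) and 2927 were lower (21.2%). Small nucleolar RNA genes, most of which lie in introns of host genes, were higher in 50 of 158 cases (31.6%) and lower in 6, and their median log2 fold change was 0.79. Of the 12 host genes in the list of snoRNA hosts, 11 were higher, with Snhg4 at 9.0 and 6.88 CPM in the wild-type and 48.2 and 38.2 CPM in the premalignant libraries. Reads inside the small RNAs cannot be told apart from reads of unspliced host transcripts. Pseudogenes were higher in 229 of 936 cases (24.5%) and lower in 66, with a median of 0.63. Long intergenic RNAs were higher in 42 and lower in 100 of 675 cases, with a median of -0.38.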
